A study of Mus musculus with 11 samples.

Results

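Open chromatin regions that were called in antigen-experienced CD8 T cells and in every day 9 library of cultured CD8 T cells, and not in naive CD8 T cells, numbered 1503 of 111041 merged regions (1.35%). They were found by merging ATAC-seq peaks that overlapped by at least 1 bp across 11 libraries on the autosomes and the X chromosome, and by keeping regions with a peak in those 9 libraries and none in the naive library. A peak in the day 3 effector library was neither needed nor barred, and it divides the regions into 868 with an effector peak (57.8%) and 635 without one (42.2%). These members were chosen by peak calls, so their absence from the naive list and their presence in the other lists are the definition and not a result.

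All libraries came from mouse spleen CD8 T cells with a YFP reporter of Tcf7, per the labels. Antigen-experienced cells were taken straight from the spleen as CD44-positive, CD62L-positive and YFP-positive cells (1 library), and effector cells had been activated in culture for 3 days (effector_day3, 1 library). Cells sorted by YFP at day 3 were put back in culture and sorted again at day 9. The group high_to_high was YFP-high on both days (2 libraries), low_to_high changed from YFP-low to YFP-high between the sorts (3 libraries) and low_to_low was YFP-low each time (3 libraries). Naive cells were CD44-negative, CD62L-positive and YFP-positive splenocytes (1 library). The labels used here give no strain, age or activating agent. Nothing in them ties a replicate to its own animal or culture, so the spread behind the p-values may be technical.

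A naive CD8 T cell that meets antigen divides and opens regulatory DNA at genes of killing, cytokine production, migration and activation, and memory cells keep part of that chromatin open after the response has ended. Tcf7 encodes TCF-1, a transcription factor that is high in naive and memory cells and falls in many effector cells. ATAC-seq uses a transposase that cuts and tags accessible DNA, so a peak marks a stretch where many cuts fell. Signal is given as normalized tag counts, the tags in a peak per 10 M (10 mega) tags of its library. The assay reads a population, so fewer open cells and less accessibility per cell cannot be told apart.

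Total tags ran from 20.8 to 60.0 M and peaks from 46454 to 66117 per library. Peaks took up 9.01 to 10.2% of the tags of the 5 YFP-high day 9 libraries, 10.4 to 12.5% of those of the 3 YFP-low ones, 15.8% in antigen-experienced, 9.08% in effector and 15% in naive cells. Of 9 T cell identity genes, only 2 to 4 had a promoter peak in any given library. The Cd3e promoter window (Cd3e is a chain of the T cell receptor complex) held a peak in all 11 libraries, and that of Cd8a in the naive library and high_to_high replicate 2. Cd3g and Cd5 had one in some libraries, and none was found for the rest of the list. The gene annotation held 8 of these 9 genes, so the missing gene may have had no window to hold a peak. None of the listed B cell, CD4 and regulatory T cell, or erythroid genes had a promoter peak in any library. Cebpa had one in all 11 libraries and Itgam in 10 of them, out of 8 myeloid genes. Of 6 natural killer genes, Gzma had a promoter peak in 10 libraries, Klrb1c in the naive and Klre1 in the effector library. Peak windows were 132 bp wide in the naive list, 136 bp in that of high_to_high replicate 2 and 173 bp in the others.

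The promoter windows below are chosen examples of members at a gene start and do not stand for all members. Each covers 250 bases before to 50 after a start annotated in RefSeq (GRCm38.p6, the assembly that mm10 names) and is overlapped by a member region. Ccl3 and Gzmc belong to the effector gene list, and Dhrs9, Samd3 and Nfkb2 hold motif words and were chosen after the matches were seen. Capitals mark matches to TGANTCA (AP-1), AGGTGTGA or AGGTGTTA (T-box) and CAGGAAGT or ACAGGAAG (ETS) on either strand.
Dhrs9, chr2:69380212-69380511, plus strand: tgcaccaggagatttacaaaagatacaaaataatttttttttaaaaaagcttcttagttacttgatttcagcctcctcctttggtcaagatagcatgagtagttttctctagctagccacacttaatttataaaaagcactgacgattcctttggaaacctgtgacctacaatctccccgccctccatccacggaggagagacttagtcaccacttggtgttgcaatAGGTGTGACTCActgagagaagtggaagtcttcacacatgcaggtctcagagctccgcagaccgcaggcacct
Samd3, chr10:26229457-26229756, plus strand: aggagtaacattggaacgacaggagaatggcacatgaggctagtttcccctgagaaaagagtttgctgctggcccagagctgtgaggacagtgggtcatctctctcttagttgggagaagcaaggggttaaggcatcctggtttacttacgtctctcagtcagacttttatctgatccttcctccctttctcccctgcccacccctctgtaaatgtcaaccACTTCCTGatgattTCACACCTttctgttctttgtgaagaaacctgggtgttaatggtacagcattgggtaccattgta
Ccl3, chr11:83649329-83649628, minus strand: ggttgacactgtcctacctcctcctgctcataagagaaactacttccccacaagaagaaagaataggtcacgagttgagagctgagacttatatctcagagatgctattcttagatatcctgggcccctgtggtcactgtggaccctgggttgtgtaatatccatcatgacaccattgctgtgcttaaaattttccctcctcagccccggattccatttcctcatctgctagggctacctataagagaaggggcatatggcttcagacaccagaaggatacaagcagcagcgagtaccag
Gzmc, chr14:56234608-56234907, minus strand: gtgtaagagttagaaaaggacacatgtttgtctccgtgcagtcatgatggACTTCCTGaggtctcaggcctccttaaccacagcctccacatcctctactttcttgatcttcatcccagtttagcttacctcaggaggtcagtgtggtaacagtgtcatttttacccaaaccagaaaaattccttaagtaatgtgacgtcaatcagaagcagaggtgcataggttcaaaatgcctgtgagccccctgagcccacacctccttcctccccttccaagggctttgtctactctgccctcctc
Nfkb2, chr19:46305445-46305744, plus strand: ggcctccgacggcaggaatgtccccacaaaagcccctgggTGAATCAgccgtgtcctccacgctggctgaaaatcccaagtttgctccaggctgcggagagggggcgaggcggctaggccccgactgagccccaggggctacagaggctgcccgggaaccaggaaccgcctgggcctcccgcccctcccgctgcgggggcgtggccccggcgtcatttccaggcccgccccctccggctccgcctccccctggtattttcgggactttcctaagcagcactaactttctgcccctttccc

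Dhrs9 encodes a dehydrogenase of the short-chain family. In its window a T-box word and an AP-1 word overlap, 23 and 18 bases before the start. The region over it had 19.8 tags in antigen-experienced cells and 35.8 in effector cells, and 41.1 and 44.1 in high_to_high, 39.8, 43.9 and 57.6 in low_to_high and 42.9, 59.6 and 49.8 in low_to_low libraries. All 8 day 9 libraries lay above the antigen-experienced one, and the nearest naive peak was 139251 bp away.

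The Samd3 window had an ETS and a T-box word 29 and 15 bases before the start. Its region went the other way, with 45.8 tags in antigen-experienced cells against 12.5 to 24.4 at day 9, and no effector peak. Nfkb2 encodes a subunit of the NF-kB transcription factors. Its region had 72.9 tags in antigen-experienced cells, 33.8 in effector cells and 31.2 to 48.7 at day 9, with a naive peak 667 bp away. The AP-1 word of that window lay inside the region, and an NF-kB word, not in capitals, lay outside it.

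Over all 115 windows that members overlap, T-box words occurred in 5 (4.35%), against 88 of 8986 windows over regions called also in naive (0.979%) and 554 of 32585 windows in the table (1.7%). RUNX words (TGTGGT) stood in 22 windows (19.1%), against 12.6% over regions called also in naive and 16.6% of the table. AP-1 words were in 8 windows (6.96%), against 4.31% and 7.85% in the same order. ETS words were in 5 windows (4.35%), against 6.54% and 5.85%. TCF/LEF words (CTTTGAT or CTTTGAA) were in 4 windows (3.48%), against 5.93% and 8.68%. A match only describes the letters of a window, most members lie outside these windows, and several windows can belong to 1 region, so no test was made.

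Most members were far from gene starts. Counted without chromosome 18, for which no windows were used here, 93 of 1447 members overlapped a promoter window (6.43%), against 24.8% of the regions called also in naive and 10.3% of all merged regions. The subset with an effector peak overlapped promoters in 9.2% of cases and the subset without one in 2.62%. Of the 93, 29 (31.2%) had a naive peak within 500 bp. Members with such a neighbour overlapped promoters in 20.7% of cases and had an effector peak in 70.1%, against 4.9% and 56.4% of the other members. The centre of 914 members (63.2%) lay over 10 kb from a start, against 49.6% of regions called also in naive and 61.3% of all regions. The median distance was 16161 bp, against 9802 bp for regions called also in naive and 15873 bp for all. By median distance members were thus about as remote as all merged regions, though they overlapped promoters less often. They were more remote than the 29763 regions open in naive cells as well. Regions called in all 8 day 9 libraries but in neither antigen-experienced nor naive cells were more remote still. Of those, 3.61% overlapped a promoter window and the median distance was 21848 bp.

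**Figure D1:**
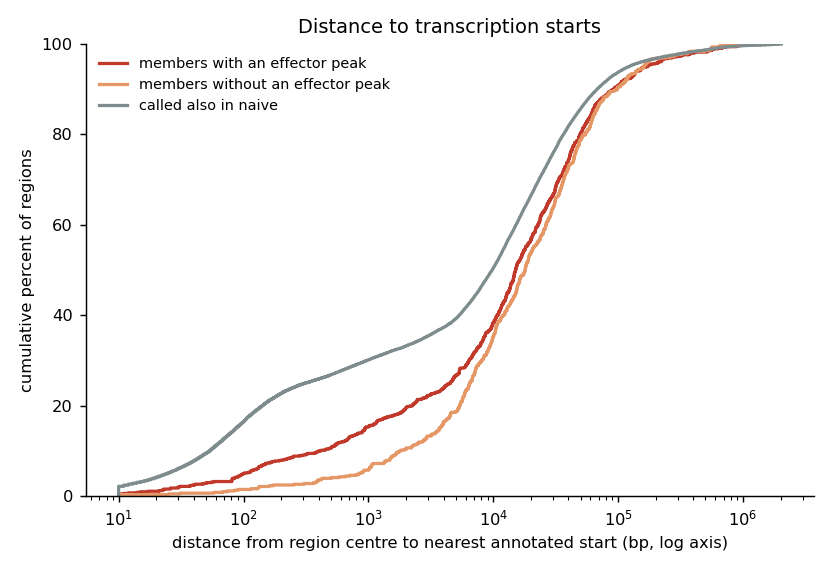
Cumulative percent of regions (vertical axis) by distance from the region centre to the nearest annotated start in bp (horizontal log axis), for members with an effector peak, members without one and regions called also in naive. The curve of members without an effector peak lies lowest near starts, and 2.62% of them overlap a promoter window against 9.2% of members with an effector peak.

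A neighbouring naive peak stood beside some members. In 147 of them (9.78%) a naive peak lay within 500 bp without overlapping, at a median distance of 140 bp, and 337 (22.4%) had one within 2000 bp. These neighbours were not weak, with a median of 17.2 tags and a highest value of 156. They were common among the strongest members. Of the 151 members with the highest antigen-experienced values (33.4 to 174), 53 had such a neighbour (35.1%), against 3 of the 151 lowest (1.99%). Hbp1, which encodes a transcriptional repressor, shows the case, since its region had 174.5 tags in antigen-experienced cells and a naive peak of 156 tags 5 bp away. For such members the naive chromatin was open beside the region, and the called peaks did not overlap. Naive peak windows were narrower (132 bp, against 173 bp in most lists). At gaps of a few bp, window width and a difference of peak position cannot be told apart. The other 1356 members (90.2%) had no naive peak within 500 bp, and the results below are given for them where they differ.

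Member signal was low to moderate. In antigen-experienced cells the median was 9.16 tags with an interquartile range of 5.97 to 18.1, against 30 for regions called also in naive. In effector cells the 868 members with a peak had a median of 12.5, against 16.3. In day 9 libraries the member medians were 11.3 to 16.1, against 18.0 to 25.2. Members took 1.43% of the antigen-experienced signal in peaks and 2.1 to 2.42% of that of day 9 libraries. The lowest member value in any of the 9 libraries was 2.67, which is also the value of the weakest naive peak, and 463 members exceeded the median naive peak (14.5) in antigen-experienced cells. Just outside the rule, 427 regions of antigen-experienced cells with no naive peak were called in 7 of 8 day 9 libraries, and 1945 in none.

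**Figure D2:**
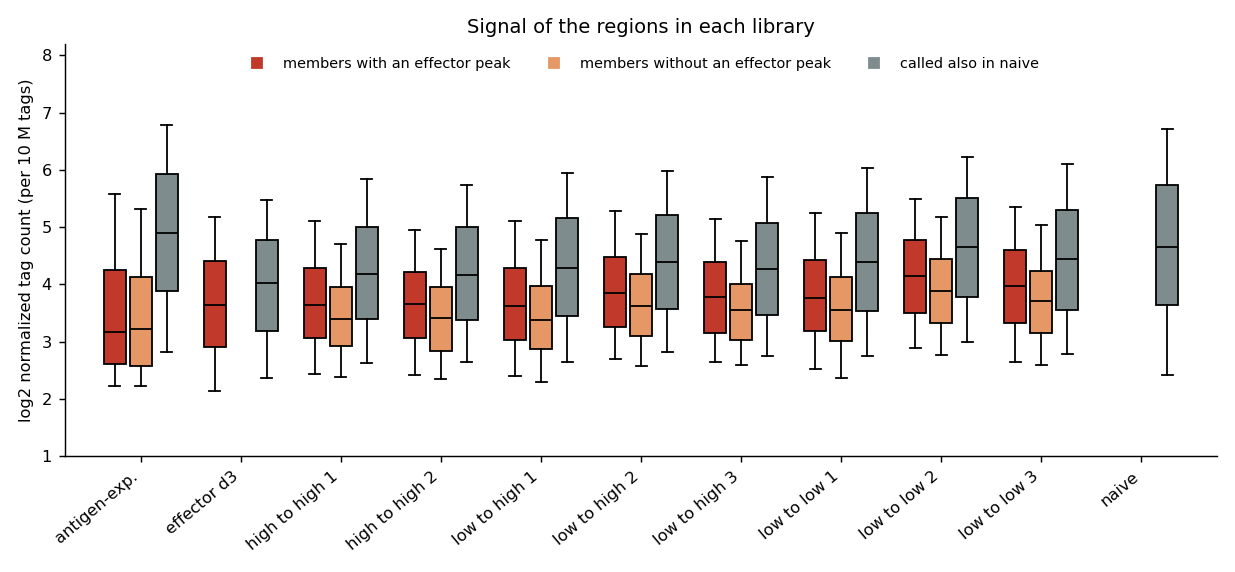
Log2 normalized tag count (vertical axis) in each library for members with an effector peak, members without one and regions called also in naive; boxes are quartiles, lines medians and whiskers the 5th and 95th percentiles. Members lie below the regions called also in naive in every library, with medians of 9.16 against 30 tags in antigen-experienced cells.

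Antigen-experienced signal at the members was mostly below day 9 signal. After each library was centred on its median log2 value over the 31266 regions called in these 9 libraries, the antigen-experienced value lay below all 8 day 9 values at 1046 members (69.6%), against a background of 26.6% of all such regions. It lay above all 8 at 148 members (9.85%), against a background of 37.6%. The median difference was -0.71 on the log2 scale (interquartile range -1.23 to -0.17), against 0.09 over all regions. There is 1 antigen-experienced library, so this is a description with no test. Of the 31266 regions, 95.2% were called in naive cells too, and these had a higher antigen-experienced signal (median 30 tags, against 9.16 for members). Members were chosen for lacking a naive peak, and how far that choice lowers their antigen-experienced signal was not tested. On the deposited scale, where the median of all regions was 0.59 above day 9, 621 members (41.3%) lay below all 8 and 338 (22.5%) above, with a median of -0.22, against 8.86% and 66.5% of all regions. Among the 1356 members with no naive peak within 500 bp, 994 (73.3%) lay below and 105 (7.74%) above on the centred scale. The 147 with a close naive peak had a median difference of -0.07, against -0.77 for the rest.

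On the centred scale, effector signal went the other way in the 868 members with an effector peak. The 635 members without one (42.2%) have no effector value, so members of weak effector signal are left out. Of the regions called also in naive, 78.9% had an effector peak, so fewer of them drop out. How far this filter raised the member values was not tested. Effector signal lay above all 8 day 9 values at 396 members (45.6%), against a background of 24.8%. It lay below all 8 at 211 (24.3%), against a background of 30.1%. The median difference was 0.22, against -0.04 over the 25916 regions called in these 9 libraries. On the deposited scale the direction of the member median turned, to -0.16, against -0.42 over all regions. There 212 members lay above all 8 (24.4%, against 7.91% of all regions) and 324 below (37.3%, against 56.9%).

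The order of antigen-experienced and day 9 signal was less alike among members than among regions called also in naive. Across members, antigen-experienced and mean day 9 log2 values had a Pearson r of 0.59 and a Spearman rho of 0.55 (n = 1503), against 0.90 and 0.91 over the 29763 regions called also in naive. Effector and day 9 values had an r of 0.47, and antigen-experienced and effector values 0.34 (n = 868). These are correlations across regions within the same libraries, the range of member values is narrower, and regions are not replicates.

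**Figure D3:**
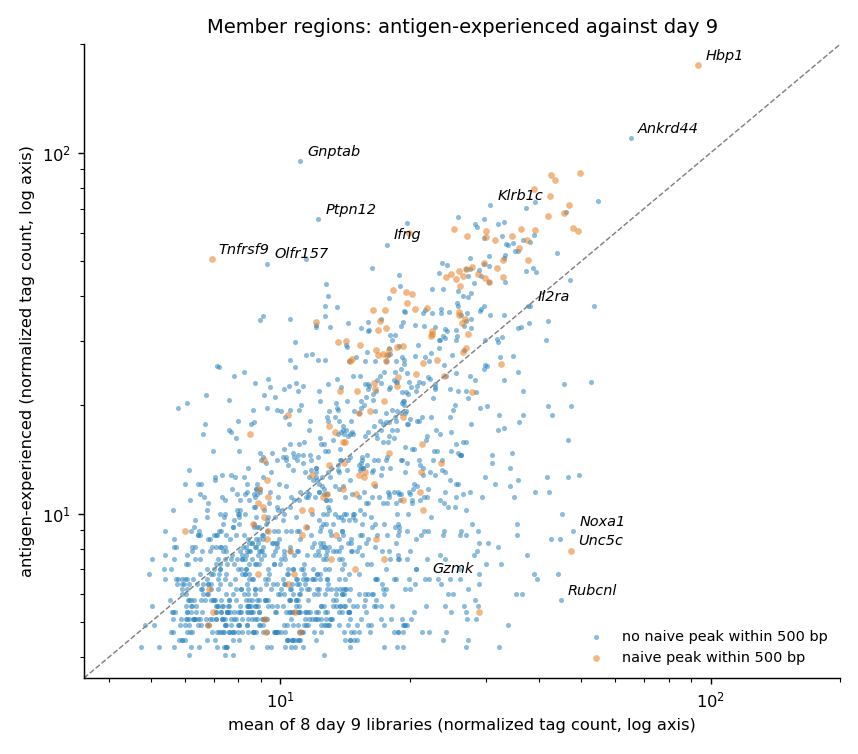
Antigen-experienced signal (vertical log axis) against the mean of the 8 day 9 libraries (horizontal log axis), both in normalized tag counts, with 1 point per member and a dashed line of equal values. Orange points, with a naive peak within 500 bp, gather at the upper right, while points such as Rubcnl and Noxa1 lie far below the line and Gnptab far above it.

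The extremes show how far single members departed from this. At Gnptab, which encodes a Golgi enzyme that tags lysosomal proteins, antigen-experienced cells had 94.8 tags and the day 9 libraries 7.09 to 16.8 with a median of 10.4, a centred log2 difference of 2.53. At Ptpn12, a protein tyrosine phosphatase, they had 65.4 against 9.17 to 15.2 (median 12.6). Tnfrsf9 encodes the costimulatory receptor 4-1BB, and its region had 50.7 tags against 5.67 to 9.62 (median 6.65), with a naive peak of 34.5 tags 12 bp away. In the other direction, the region 9884 bp from Rubcnl had 5.75 tags in antigen-experienced cells and 28.9 in effector cells, against 36.2 to 54.6 (median 45.1) at day 9. The region 38764 bp from Herpud2 had 4.9 and 16.2 tags in the same order, against 28.7 to 39.7 (median 33.5). In each of these regions the antigen-experienced value stood outside the range of the 8 day 9 libraries.

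The effector library had extremes of its own. A region in Tnrc6a, which encodes a protein of microRNA silencing complexes, had 37.4 tags in effector cells against 4.59 to 9.45 (median 6.54) at day 9 and 5.33 in antigen-experienced cells. Beside Add3, a cytoskeletal adducin, the values were 27.1 tags in effector cells, 3.95 to 7.76 at day 9 and 6.6 in antigen-experienced cells. The region in Asap2 had 4.23 tags in effector cells against 20.8 to 37.3 (median 23.4) at day 9, and 27.5 in antigen-experienced cells. Near Serpina3f, a serine protease inhibitor gene, effector cells had 5.83 tags against 25.4 to 38.8 (median 31.6) at day 9. Effector signal was thus outside the day 9 range in both directions.

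Strong members with no close naive peak included the following. Ankrd44, which encodes an ankyrin-repeat protein, held a region (chr1:54660719-54660978) with 109.5 tags in antigen-experienced cells, 30.6 in effector cells and 53.5 to 75.3 (median 65.1) at day 9. Riok1, which encodes a kinase of ribosome assembly, had 73.3 and 16.7 tags in the same order and 43.6 to 65.9 at day 9. The centred log2 difference of antigen-experienced from day 9 was 0.25 at Ankrd44 and -0.07 at Riok1. The region 16035 bp from Noxa1, an NADPH oxidase activator, had 8.95 tags in antigen-experienced cells, no effector peak and 41.9 to 54.5 at day 9. There, unlike at Ankrd44, every day 9 value was above the antigen-experienced one.

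Some genes held several members. Members were assigned to the nearest protein-coding gene span within 100 kb, which gave a gene to 1406 of them (93.5%) and 1218 genes in all, of which 143 had at least 2 members and 32 at least 3. Distance alone does not link a region to the gene that it acts on. Gas7, known as a growth arrest gene with a role in neurite outgrowth, had 7 members among 23 regions, and no naive peak in any of the 23. Its strongest member had 56.2 tags in antigen-experienced cells, 26.1 in effector cells and 29.8 to 39.8 at day 9. Rai14 had 4 members among 20 regions, of which 1 was called in naive. All 4 were lower in antigen-experienced cells, with 5.54 to 8.95 tags, than at day 9, where the 4 medians ran from 12.2 to 26.1. Runx2, which encodes a RUNX transcription factor, had 4 members among 63 regions and Ust, a sulfotransferase gene, 5 among 46.

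Of the T cell gene lists, the effector list had the largest share of members. It had 12 members among 303 regions (3.96%), against 1.35% of all regions, at Ccl4, Ccl5, Eomes, Fasl, Gzmc, Gzmk, Gzmm, Ifng, Prdm1 and Zeb2. The homing and adhesion list had 10 of 296 (3.38%), the killer lectin-like receptors 2 of 59 (3.39%) and the AP-1, BATF and IRF factors 5 of 170 (2.94%). The T-box, RUNX and identity factors had 9 of 378 (2.38%), costimulation and T cell receptor signalling 7 of 365 (1.92%), survival 2 of 105 (1.9%) and cytokine receptors 4 of 235 (1.7%). The inhibitory list had 2 of 184 (1.09%), glycolysis 1 of 102 (0.98%), the naive and memory list 6 of 658 (0.912%) and the T cell identity markers 0 of 81. Lists of other cells had 2 of 51 (natural killer, 3.92%), 2 of 53 (CD4 and regulatory T cell, 3.77%), 1 of 35 (myeloid, 2.86%), 1 of 61 (B cell, 1.64%) and 0 of 9 (erythroid), so the natural killer and CD4 shares were near that of the effector list. In all, 57 members belonged to the 11 T cell lists. Of these, 24 had an effector peak and 33 did not, while 57.8% of all members had one. A naive peak lay within 500 bp of 2 of the 57, against 9.78% of all members.

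Members at cytotoxic and cytokine genes differed in which cells had more signal. Ifng encodes interferon gamma, and the region 5226 bp from it (chr10:118435490-118435820) had 55.6 tags in antigen-experienced cells and 22.3 in effector cells, against 19.2 and 14.3 in high_to_high, 16.7, 19.5 and 17.5 in low_to_high and 17.5, 21.5 and 15.3 in low_to_low libraries. Antigen-experienced and effector cells both lay above the 8 day 9 libraries, whose groups overlapped, with centred log2 differences of 1.11 and 0.71. Gzmm, a granzyme gene, had a member with 55.8 tags in antigen-experienced cells, no effector peak and 26.9 to 46.3 (median 32.6) at day 9. Its centred log2 difference was 0.25. Gzmk, another granzyme gene, had the opposite order, with 6.6 tags in antigen-experienced cells against 16.7 to 37.3 (median 19.6) at day 9, where low_to_low replicate 2 was the highest. The region over the Gzmc promoter was weak everywhere, with 5.11 tags in antigen-experienced cells and 6.24 to 9.08 at day 9.

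Chemokine genes of the effector list held 3 members, and Ccl1, a chemokine gene outside the list, had 3 more. In Ccl5 a region had 40.1 tags in antigen-experienced cells against 21.0 to 32.9 (median 26.6) at day 9, and the region 1013 bp from the gene had 13.2 against 9.5 to 22.6. The centred log2 differences of these regions were only 0.1 and -0.66 in that order. The region over the Ccl3 promoter window, which the gene table places inside Ccl4, had 14.9 tags in antigen-experienced cells, 30.7 in effector cells and 17.1 to 32.4 at day 9. There the high_to_high values of 18.8 and 17.1 lay below the low_to_low values of 30, 32.4 and 32.4 on the deposited scale, and the region was not called between day 9 groups. Zeb2, a transcription factor gene of terminal effector cells, had a region 55308 bp away with 21.7 tags in effector cells against 6.04 to 10.1 at day 9. Over the 12 members of the effector list, the median centred difference of antigen-experienced from day 9 was -0.78, against -0.71 for all members.

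Receptors for cytokines and for tissue homing were marked in both subsets. Il2ra, the IL-2 receptor alpha chain, had a member (chr2:11693103-11693329) with 37.5 tags in antigen-experienced cells against 31.2 to 47.3 (median 35.9) at day 9, and no effector peak. Il18rap, a chain of the IL-18 receptor, had 36.4 tags in antigen-experienced and 43.5 in effector cells, against 16.1 to 22.5 at day 9. Ccr2, a chemokine receptor gene, had a region with 30.3 and 25.4 tags in the same order, against 34.5 to 58.5 at day 9. On the deposited scale the antigen-experienced value was thus above the day 9 range at Il18rap, within it at Il2ra and below it at Ccr2. The centred log2 differences were 0.39, -0.50 and -0.91, so that Il2ra was below day 9 on that scale. Itga1 encodes an integrin subunit that binds collagen, and its 3 members had 5.11 to 9.37 tags in antigen-experienced cells, below all 8 day 9 values in each case. The region near Cxcr3, a receptor for interferon-induced chemokines, had 17.5 tags in antigen-experienced cells against 11.8 to 17.0 at day 9, an order that turned after centring (log2 difference -0.19).

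All 5 members of the AP-1, BATF and IRF list, factors of activated cells, lacked an effector peak, as did 42.2% of all members. The Fosl2 region had 42.0 tags in antigen-experienced cells against 18.7 to 27.1 at day 9, a centred log2 difference of 0.39. The 2 members at Batf3 had 7.88 and 5.11 tags, against day 9 ranges of 11.5 to 20.2 and 6.91 to 15.5. In the naive and memory list, Ikzf1 (the lymphoid factor Ikaros) had 58.6 tags in antigen-experienced cells against 28.6 to 40.3 at day 9. Satb1, a chromatin organizer gene, had 40.1 against 11 to 18.4, with 4.89 tags in effector cells. After centring, the log2 differences from day 9 were 0.34 at Ikzf1 and 1.09 at Satb1. The list's 6 members had a median centred difference of -0.10, with -0.34 at Bach2, -0.39 at Ikzf2 and -0.54 at Eomes. Klrb1c encodes the lectin receptor NK1.1, and the region near it had 71.4 tags in antigen-experienced cells, no effector peak and 22.8 to 42.4 at day 9. Both members of the killer lectin-like receptor list were above all 8 day 9 libraries on the deposited scale. So were 22.5% of all members and 66.5% of all regions, so that position alone does not set these genes apart. After centring, the log2 differences of the 2 members were 0.73 (Klrb1c) and 1.04 (Klra3).

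**Figure D4:**
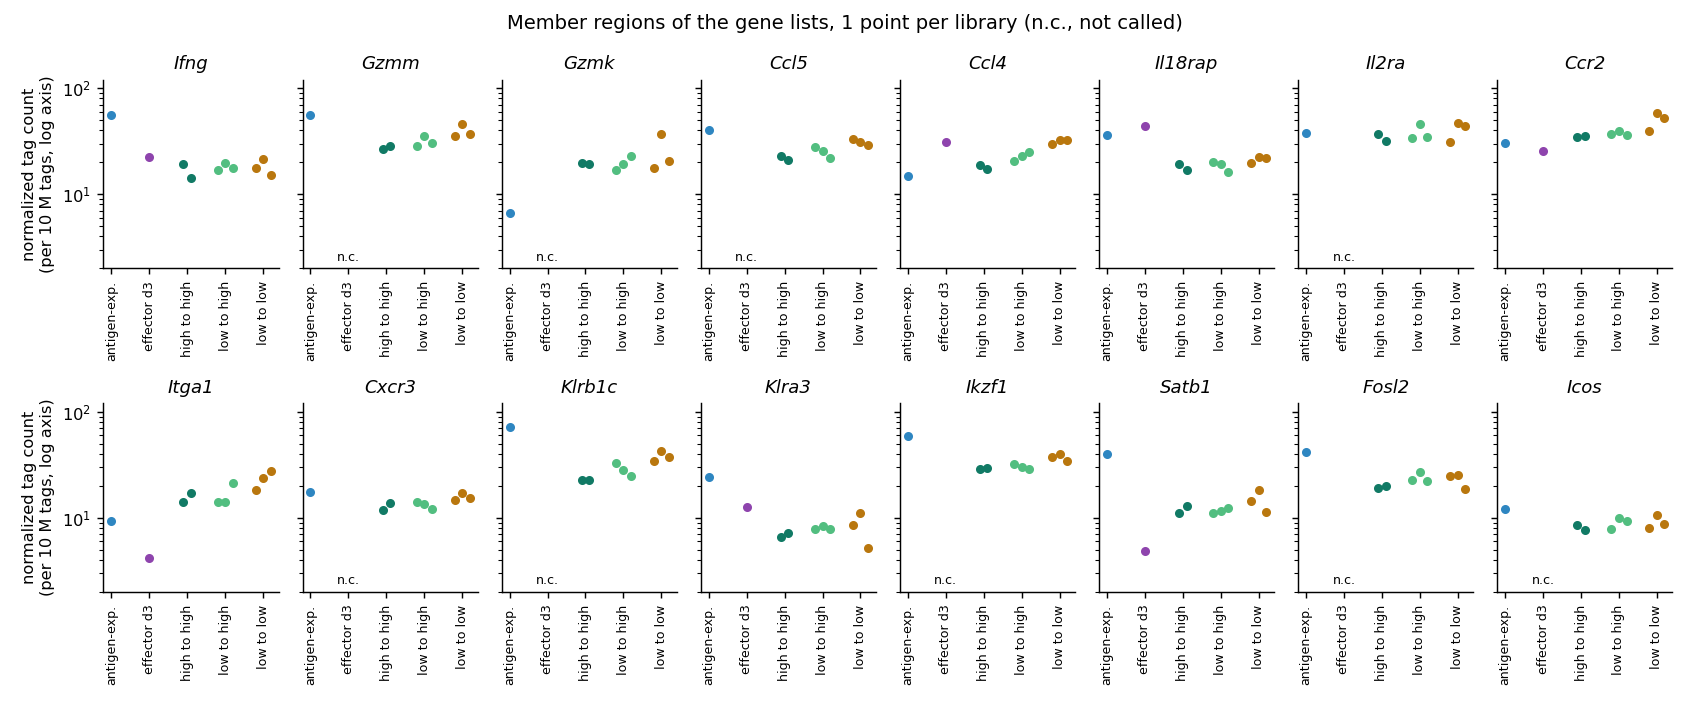
Normalized tag count (vertical log axis) of 16 members from the gene lists in antigen-experienced, effector, high_to_high, low_to_high and low_to_low libraries, 1 point per library; n.c. means that no peak was called. On this deposited scale antigen-experienced cells stand above day 9 at Ifng, Klrb1c and Ikzf1 and below it at Gzmk and Itga1. On the same scale 22.5% of members and 66.5% of all regions stand above all 8 day 9 libraries.

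At day 9, few members differed between YFP-high and YFP-low cells. With limma, fitted to 34383 regions with a peak in each of the 8 day 9 libraries, 6 members passed a Benjamini-Hochberg adjusted p of 0.05 for YFP-high against YFP-low (0.399%), against a background of 0.332% of all regions, and all 6 were higher in YFP-high cells (backgrounds of 0.329% higher and 0.00291% lower). For high_to_high against low_to_low, 15 members passed (0.998%), against a background of 0.596%, with 14 higher and 1 lower (backgrounds of 0.558% and 0.0378%). For low_to_high against low_to_low, 1 member passed (0.0665%), against a background of 0.032%. For low_to_high against high_to_high, limma called 0 members, against a background of 0.0%. At an unadjusted p under 0.05 the member shares were 11.4, 14, 7.39 and 6.45% in these 4 comparisons (171, 210, 111 and 97 members), against backgrounds of 8.07, 9.92, 5.56 and 5.09%. The median log2 fold change of members was -0.02, -0.01, -0.02 and -0.01 in the same order, and the comparisons share libraries. The shares past the adjusted threshold rest on few members, and the member medians lay near 0. With the replicate number as a block, limma called 14, 31, 1 and 0 members (0.931, 2.06, 0.0665 and 0.0%), against 0.619, 1.09, 0.16 and 0.0116% of all regions. On the deposited scale the split turned, with 6 members higher and 102 lower for YFP-high against YFP-low and 12 higher and 286 lower for high_to_high against low_to_low, where the median of all regions was -0.22 and -0.30. These were 7.19 and 19.8% of members, against 5.88 and 21.6% of all regions, which split into 79 higher and 1943 lower and into 149 higher and 7261 lower. With the percent of tags in peaks as a covariate, a choice made after seeing the data, limma called 0 members in every comparison, with 71, 98, 57 and 73 at an unadjusted p under 0.05 (4.72, 6.52, 3.79 and 4.86%, against 3.56, 4.79, 3.17 and 4.53% of all regions). That percent was higher in all 3 YFP-low libraries than in all 5 YFP-high ones, so its part in the calls cannot be told apart from YFP.

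The region 26981 bp from Cd40lg, the gene of the costimulatory CD40 ligand, was the one member called in 3 comparisons. Cd40lg is on the costimulation list and also on the CD4 and regulatory T cell list. The other member of the latter list, at Ikzf2, was called higher in high_to_high than in low_to_low. Whether other cells contribute to these calls was not tested. The Cd40lg region lies at chrX:57184873-57185162. It had 10.1 and 10.6 tags in high_to_high, 13.6, 12.1 and 8.4 in low_to_high and 5.78, 7.41 and 4.94 in low_to_low libraries. All 5 YFP-high values lay above all 3 YFP-low values. Its log2 fold change was 0.98 (SE 0.16, limma adjusted p = 0.00158) for YFP-high against YFP-low and stayed called with any 1 of the 8 libraries left out, at 0.90 to 1.07. It was 0.99 for high_to_high and 0.97 for low_to_high, each against low_to_low, with limma adjusted p of 0.00962 and 0.0265, and these calls held in 5 and 3 of 8 omissions. Antigen-experienced cells had 35.2 tags there and effector cells 10.7. With the covariate the fold change for YFP-high against YFP-low was 1.12 and the limma adjusted p 0.999.

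The other calls for YFP-high against YFP-low did not hold under every omission of a library. Stk39, which encodes a kinase that acts on ion transporters, had 24.0 and 23.8 tags in high_to_high, 23.9, 20 and 22.3 in low_to_high and 18.1, 18.8 and 14.4 in low_to_low libraries. All 5 YFP-high values were again above the 3 YFP-low ones, and the difference was 0.62 on the log2 scale (SE 0.13; limma, adjusted p = 0.0153). It lost its call in 4 of 8 omissions of a library, with an adjusted p of 0.186 without low_to_low replicate 3. Dzank1 (0.87), Slco3a1, a transporter gene 91433 bp away (0.80), Ednrb, an endothelin receptor gene (0.78), and a region with no gene within 100 kb (0.80) made up the rest. Each of these 4 lost its call without low_to_low replicate 2, with limma adjusted p of 0.28, 0.212, 0.632 and 0.245, while the fold changes there were 0.67, 0.75, 0.57 and 0.68.

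Between high_to_high and low_to_low the largest fold changes were at Immp2l (1.22, limma adjusted p = 0.00586) and Itgb2l (1.14, limma adjusted p = 0.00119), which lost their calls without high_to_high replicate 1 (adjusted p = 0.132) and replicate 2 (adjusted p = 0.0705) in that order. Itgb2l encodes an integrin beta subunit, and the region in it, which a further gene overlaps, had 16.5 and 20.8 tags in high_to_high, 11.7, 11.9 and 12.2 in low_to_high and 11.8, 9.91 and 8.16 in low_to_low libraries. High_to_high stood apart there and the other day 9 groups overlapped. Ikzf2, the gene of the transcription factor Helios, lies 76952 bp from a region with 13.9 and 11.9 tags in high_to_high, 9.99, 10.5 and 9.12 in low_to_high and 9.71, 6.69 and 6.87 in low_to_low libraries (log2 fold change 0.97, limma adjusted p = 0.0125). It lost its call in 4 of 8 omissions. Etv6, an ETS family factor gene (1.02), Cdkn2b, an inhibitor of cell cycle kinases (1.04), Efcab3 (1.03) and Frmd4a (0.91) were higher as well, and their calls held in 5, 6, 7 and 4 of 8 omissions.

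Pald1 was the exception. Its region had 11.6 and 12.9 tags in high_to_high, 22, 21.7 and 18.5 in low_to_high and 29.1, 31.9 and 23.6 in low_to_low libraries. On this deposited scale the 3 groups did not overlap and low_to_high lay between the others. After centring, low_to_high was not called against low_to_low (log2 fold change -0.25, limma adjusted p = 0.92). High_to_high was lower by limma, with a log2 fold change of -0.84 (SE 0.15, adjusted p = 0.00301), set against low_to_low. With high_to_high replicate 1 left out, its limma adjusted p was 0.0506. Of the 16 members called in any comparison, 13 had an effector peak and 3 did not (57.8% of all members had one), and all had no naive peak within 500 bp.

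**Figure D5:**
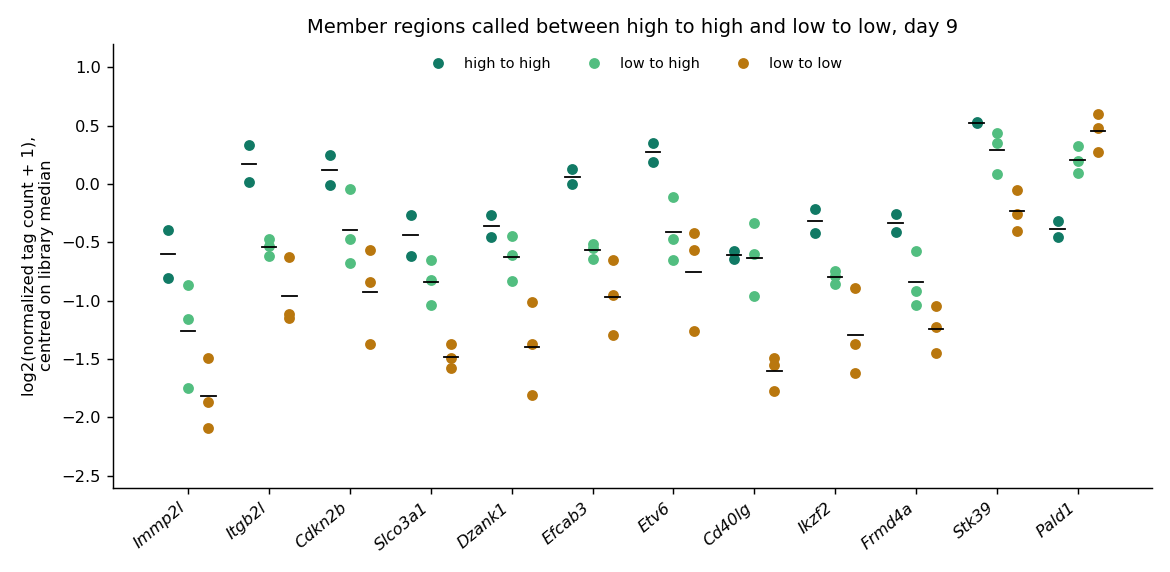
Log2(normalized tag count + 1) centred on the library median (vertical axis) of the named members called between high_to_high and low_to_low, 1 point per library and a line at each group mean. At Cd40lg the low_to_high points lie with high_to_high, while at Itgb2l they lie below high_to_high.

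Over the 8 day 9 libraries, which mix the 3 groups, the median SD of log2 values was 0.20 for members, against 0.17 for all 34383 regions and 0.20 for regions of similar signal. The 90th percentile was 0.32, against 0.27 and 0.29 in the same order.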

How the data were processed

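ATAC-seq of 11 mouse CD8 T cell libraries was used as deposited peak lists, 1 per library and not pooled. Peaks were called with HOMER 4.10, per the file headers, with an FDR of 0.001, a minimum of 4-fold over 10 kb around the peak and a local p limit of 1e-04. The signal of a peak, its normalized tag count per 10 M tags, was computed by the authors, per the file headers. The ratio, a peak's fold over local signal, was computed by the authors too, per the file headers, and served only for a stricter filter. The submitters' processing notes name Bowtie2, DESeq2 and build mm10 and give no role for DESeq2. The filter on local signal had removed 36.4 to 53.3% of putative peaks, so a region missing from a list is not known to be closed. Depth of 20.8 to 60.0 M tags set the weakest peak of each list. Intervals for counting error are not given, so values of the groups with 1 library stand without an error.

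Peaks were merged over at least 1 bp (bedtools 2.31.1 gave the same 111041 regions), and a region took its highest value per library. Other chromosomes, which held up to 0.104% of a library's peaks, were not used. Genes, starts and promoter sequences came from RefSeq tables of GRCm38.p6. Day 9 groups were compared by limma 3.58.1 (R 4.3.3; lmFit, then eBayes with a trend) using log2(normalized tag count + 1), a scale that understates changes of low values, with each library centred on its median and Benjamini-Hochberg adjustment over 34383 regions. The model was also run on simulated data, whose outcome is not given here. Groups with 1 library had no test. Low_to_high and low_to_low libraries of the same number deviated together (correlations 0.298, 0.136 and 0.161, and 0.386, 0.246 and 0.241 over members). Those of different number had -0.188 to 0.021. Pairs with high_to_high of the same number did not deviate together (-0.041 to -0.001), so the numbers were not taken to pair all samples. The main comparison of low_to_high with low_to_low therefore leaves this pairing out, and only the replicate block takes it in. Named regions were the strongest members of each subset, members called by limma, members of gene lists, genes with the most members, and the extremes of each difference. Others were chosen after their values were seen. The members, lists and tests were chosen with earlier results of these data known. Alternatives were the merging rule, peak filters, scaling, pseudocount, a replicate block and leaving out each library.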

Additional observations from a re-analysis of the deposited data

Results flagged for a closer look

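A region on chromosome 18 (start 4031043) with no gene within 100 kb was called between high_to_high and low_to_low, and 1 of its YFP-high values, 21.7 tags in high_to_high replicate 2, stood far above the other YFP-high libraries. This gap was the only one of 17 tested to pass Dixon's 95% limit, which chance passes in about 1 of 20 groups. Without high_to_high replicate 2 its log2 fold change was 0.63 with a limma adjusted p of 0.261.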

How the results depend on the processing

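The number of members followed the peak threshold. Peaks at least 6-fold over local signal gave 814 members, 417 with and 397 without an effector peak, and a value of at least 10 in all 9 libraries gave 500, 300 and 200. Leaving out 1 day 9 library gave 1512 to 1633 members, 873 to 923 with and 639 to 710 without an effector peak. Without centring, 338 members lay above and 621 below all 8 day 9 libraries in antigen-experienced cells, and 212 and 324 in effector cells. Calls for YFP-high against YFP-low were 108 without centring, 3 with a mean of at least 10, 14 with the replicate block, 1 without trend and 0 with the covariate. For high_to_high against low_to_low they were 298 without centring, 31 with the replicate block and 0 with the covariate. For low_to_high against low_to_low, 1 member was called with the replicate block, and 0 without centring, with a mean of at least 10, without trend or with the covariate. The cause of these shifts was not tested. Leaving out 1 library gave 1 to 16, 6 to 19 and 0 to 3 calls in these comparisons. YFP-high against YFP-low fell to 1 call without low_to_low replicate 2 or 3 and to 3 without high_to_high replicate 1, and reached 16 without low_to_low replicate 1 or low_to_high replicate 2 and 11 without low_to_high replicate 1. High_to_high against low_to_low fell to 6 without either high_to_high replicate or low_to_low replicate 2. For low_to_high against low_to_low the count was 3 without low_to_low replicate 1 and 0 without any other library of these groups. No called region changed sign. Naive, antigen-experienced and effector cells have 1 library each, so membership has no replicate check on the naive side.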
